A study of Mus musculus with 8 samples.

Results

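DNA replication and S-phase genes are described here in 8 RNA-seq libraries of mouse neural stem cells from the subventricular zone, a niche in the wall of the lateral ventricles where stem cells persist after birth. The set is a list of 48 gene symbols; the rule that applies it uses no value in the table, but the list was drawn up with earlier results of these data known. All 48 were found among the 45777 genes of the deposited table, and all 48 were among the 17644 genes that passed the filter on low counts. The samples are SVZ-NSCs of a control genotype, labelled WT, and of an S1PR1-deficient genotype, labelled S1pr1 deletion. S1PR1 is a cell-surface receptor for the lipid sphingosine-1-phosphate. Cells of each genotype were treated with one of 2 preparations of high-density lipoprotein, labelled ApoM-HDL and ApoM+HDL after apolipoprotein M, which carries sphingosine-1-phosphate on these particles. Each of the 4 groups has 2 samples, and every sample received lipoprotein. The strain, the age, the lipoprotein dose, the treatment time and the way the receptor gene was deleted are not stated in the labels used here. The labels number the replicates without saying whether they were separate cultures or animals, so the p-values measure only the spread between these libraries, which may be technical.

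The table names its libraries by the codes CH, CV, GH and GV, each with the number 1 or 2. C was read as control, since it begins the titles of the control samples alone. G was read as S1PR1-deficient by elimination only. Neither H nor V names a preparation, so both were compared as codes only and no direction with respect to apolipoprotein M is given. The targeted gene went against the reading of G. S1pr1 stood at 25.4 and 23.2 CPM (counts scaled to a common library size) in the CH libraries, 20.8 and 16.02 in CV, 23.2 and 21.2 in GH, and 22.2 and 22.4 in GV. Its mean was 21.3 ± 4.03 CPM in the C libraries (SD, n = 4) and 22.3 ± 0.82 CPM in the G libraries (SD, n = 4), so it was no lower under the code read as deficient. The count covers the whole gene, and the deleted part is not given in the sources used here. Every genotype statement therefore rests on the code alone, and groups are named by code throughout.

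A dividing cell copies its genome once per cycle. In G1, the origin recognition complex with Cdc6 and Cdt1 loads the MCM helicase onto origins. At the start of S phase, Cdc45 and the GINS complex switch that helicase on, and polymerases, the sliding clamp PCNA and its loader RFC copy both strands. Many of these genes are activated at the G1-to-S transition by E2F transcription factors, and cyclin E with its kinase drives that transition. In the subventricular zone, these genes are used as signs of cycling among stem cells and their fast-dividing progeny, while quiescent stem cells keep many of them low.

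To look for E2F sites at these genes, promoter windows from 250 bases before to 50 bases after each gene start were taken from RefSeq (GRCm38.p6). They were available for 39 of the 48 genes, as 45 windows, and 19 windows from 19 genes held E2F-like letters, defined as TTTCCCGC, TTTGGCGC, TTTCGCGC or TTTGGCGG on either strand. That is 42.2% of the windows of these genes, against 2.37% of all 32851 windows. The letters CCAAT, bound by NF-Y, were in 64.4% against 37.41% of all windows. The letters TTTGAA or TTCGAA, which resemble the cell cycle homology region of late-cycle promoters, were in 17.8% against 19.23%. Below are the 4 genes that were lower in GV than in CV, have a single window and hold E2F-like letters wholly upstream of the start. Each stretch runs 5′ to 3′ on the gene's strand, with the E2F-like letters in capitals.
Chaf1a, chr17:56040312-56040415, plus strand: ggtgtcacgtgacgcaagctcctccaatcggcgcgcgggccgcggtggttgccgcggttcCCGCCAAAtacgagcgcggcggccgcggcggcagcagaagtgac
Mcm5, chr8:75109296-75109427, plus strand: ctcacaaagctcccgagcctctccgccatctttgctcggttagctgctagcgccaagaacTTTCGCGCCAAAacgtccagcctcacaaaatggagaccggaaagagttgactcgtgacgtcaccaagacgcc
Mcm6, chr1:128359706-128359875, minus strand: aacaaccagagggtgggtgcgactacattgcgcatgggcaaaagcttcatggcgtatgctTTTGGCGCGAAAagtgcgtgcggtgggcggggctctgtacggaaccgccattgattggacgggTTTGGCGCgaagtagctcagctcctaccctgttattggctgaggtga
E2f7, chr10:110745189-110745308, plus strand: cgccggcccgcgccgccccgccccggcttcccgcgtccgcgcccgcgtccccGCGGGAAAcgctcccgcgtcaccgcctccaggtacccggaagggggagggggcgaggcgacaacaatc
Capitals in the Mcm5 stretch and in the first Mcm6 site cover overlapping matches, one on each strand. E2F-like letters were in 12 of the 21 matched genes that were lower in GV than in CV, and in 7 of the 18 matched genes that were not. The sets were not searched equally. E2f2, Lig1, Mcm7 and Uhrf1 among the lower genes had more than a single window, and among the others only Fen1 did. A match of letters is a description and shows no binding.

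The libraries held between 39619305 and 45698186 counts. The 12 neural stem and radial glia-like marker genes summed to 6249 to 6322 CPM in the C libraries and to 5495 to 5899 in the G libraries, with Nes at 631 to 833 CPM and Sox2 at 97.4 to 126. Fabp7 (1252 to 2021 CPM) and Nes were lower in every G library than in every C library. Slc1a3 stood at 969 and 924 CPM in CV and 1083 and 1067 in GV. Averaged over both letters, 7 of the 12 were below zero in G against C and 5 above. Of the 12, 2 were lower at an adjusted p under 0.05 by edgeR's quasi-likelihood test and 0 were higher. Among these markers Gfap (at most 0.85 CPM), Hes5 (at most 3.29) and Prom1 (at most 2.6) were low. The sum of 8 oligodendrocyte lineage markers was 1955 and 1931 CPM in CV against 1435 to 1704 in the other libraries. It came mostly from Olig1, Olig2 and Cspg4, while Sox10 and Mog did not exceed 0.05 CPM. Markers of neuroblasts summed to 56.7 and 59.7 CPM in CH, 78.1 and 82.1 in CV, 74.7 and 77.1 in GH, and 88.1 and 86.0 in GV. Most of this was Gad1 (37.3 to 72.9 CPM, lowest in CH and highest in GV), with Dcx at most 1.21. Markers of neurons summed to 14.5 and 15.3 CPM in CH, 22.7 and 24.97 in CV, 26.2 and 22.0 in GH, and 31.1 and 27.9 in GV, mostly Syt1, with Slc17a6 at 0. Microglia markers reached at most 0.3 CPM in sum, with Csf1r, Aif1 and C1qa at 0, and mural and fibroblast markers at most 0.57, with Pdgfrb at 0. The libraries also differed by base composition. Genes in the fifth with the highest GC share (over 55.2% of the longest transcript) stood 0.14 and 0.17 log2 units above their mean over libraries in CV, and at -0.12 and -0.10 in GV. The fifth with the shortest transcripts stood at 0.05 and 0.10 in CV and at -0.19 and -0.08 in GV. Mitochondrial genes took 2.36% and 2.43% of counts in CV, 3.46% and 3.43% in GV, and 2.57% to 3.28% in the other libraries. The signal recognition particle RNA genes took 3.13% to 3.72% of counts in C and 1.49% to 2.47% in G. The part of the marker sums and of the mitochondrial share in the results was not tested.

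As a group, the 48 genes were highest in CV and lowest in GV. Their summed level was 4552 and 4511 CPM in the CV libraries, 4285 and 4334 in CH, 4162 and 4220 in GH, and 3906 and 4093 in GV. No library of one code overlapped those of another on this sum, in which abundant genes weigh most. On the mean log2 CPM of the 48, which weighs genes equally, CH (5.926 and 5.942) and GH (5.92 and 5.946) overlapped. CV (6.072 and 6.048) remained highest and GV (5.827 and 5.884) lowest. Both CV libraries stood above all the other 6 in 25 of the 48 genes, against 14.2% of all genes tested. Both GV libraries were the lowest in 14 of the 48, against 13% of all genes tested. At other ends of the order, Ccne2 and Slbp were lowest in CV, Pcna and Rrm1 highest in CH, and Rfc3 highest in GH. Cdt1, Gins3 and Clspn were lowest in CH (Rrm1, Rfc3 and Gins3 are named here after their values were seen). Of all 17644 genes tested, 2371 were lowest in CV, 1305 highest in CH, 535 highest in GH and 1196 lowest in CH. The members highest in GH or lowest in CH were thus near the share of all genes. In these bulk samples, fewer cells in S phase and less of these transcripts per cell cannot be told apart.

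**Figure D1:**
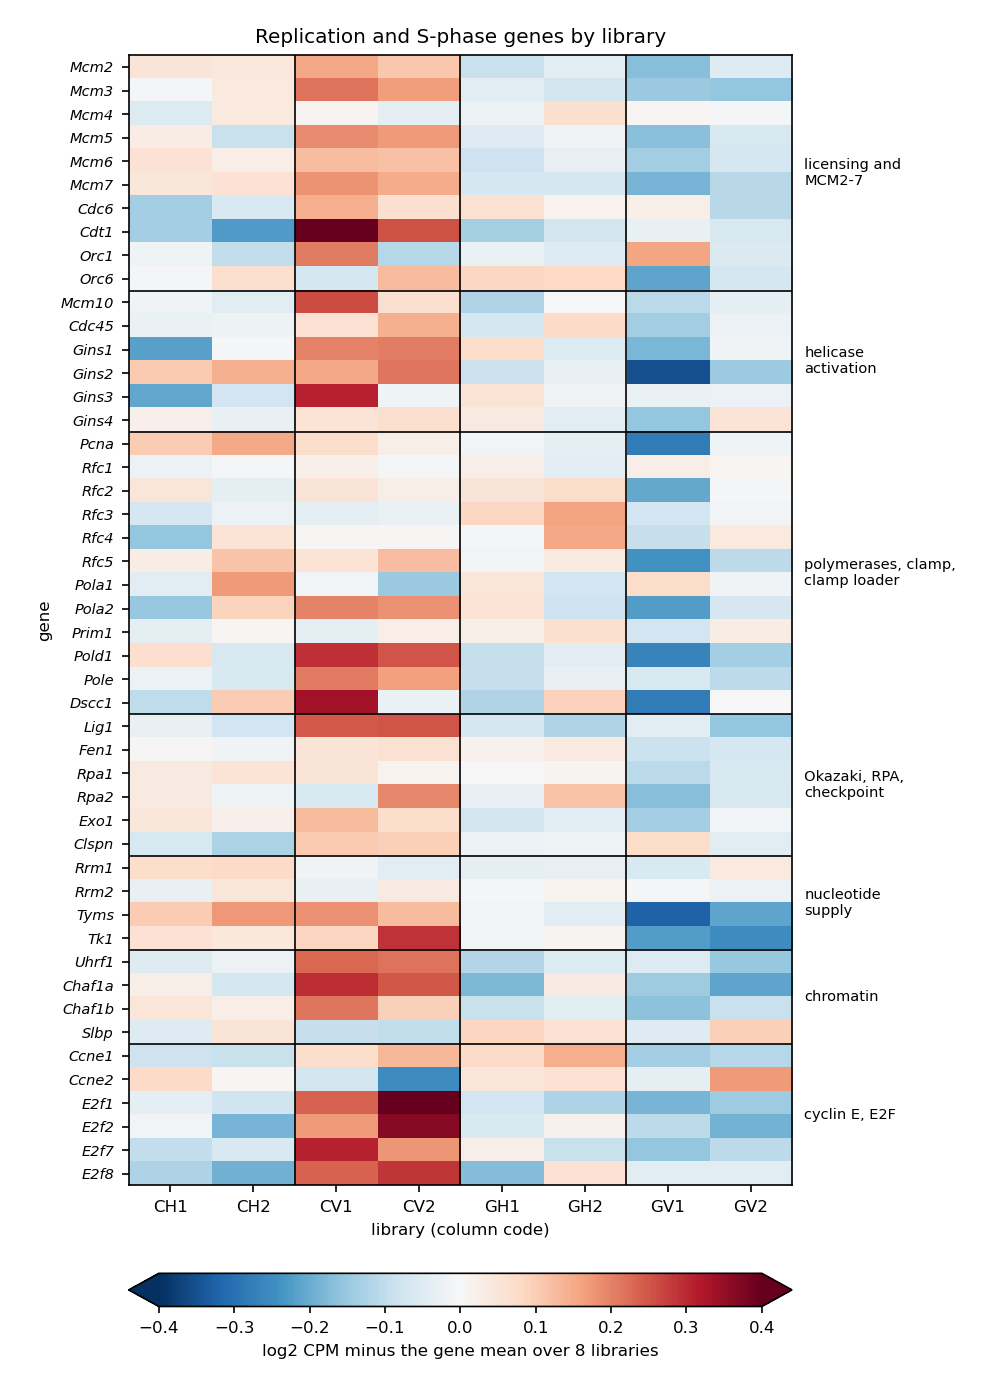
Level of each of the 48 genes (rows, grouped by role) in each of the 8 libraries (columns), as log2 CPM minus the gene's mean over the libraries (colour scale in log2 units). Most rows are red in CV1 and CV2 and blue in GV1 and GV2, with Ccne2 and Slbp blue in both CV libraries.

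The first question is whether the genotype codes differed under the letter V. Of the 48 genes, 24 were lower in GV than in CV at an adjusted p under 0.05 and 0 were higher, by edgeR's quasi-likelihood test with Benjamini-Hochberg adjustment over all 17644 genes tested. The background was high: 13.4% of all genes tested were lower in this comparison and 11.6% were higher. The median log2 fold change of the 48 was -0.23, against -0.02 over all genes, and 42 of the 48 were below zero. The called changes were small, the furthest at -0.49 on the log2 scale. The calls that also hold with an offset for the GC share of transcripts, described after the groups, are given beside each group.

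Licensing factors and the MCM helicase had 6 of 10 genes lower, namely Mcm2, Mcm3, Mcm5, Mcm6, Mcm7 and Cdt1. Mcm3, a subunit of the helicase ring, stood at 164 and 158 CPM in CV, 140 and 144 in CH, 137 and 134 in GH, and 127 and 126 in GV. The 4 codes did not overlap, and GV was lowest. Its log2 fold change between GV and CV was -0.34 ± 0.06 (SE; adjusted p = 0.00116). Mcm5 stood at 191 and 188 CPM in CV, against 171 and 158 in CH, 162 and 166 in GH, and 149 and 160 in GV. Only the CV libraries stood apart, and the change was -0.29 ± 0.06 (adjusted p = 0.00515). Mcm2 (-0.24), Mcm6 (-0.23) and Mcm7 (-0.31) changed by similar amounts, while Mcm4, a subunit of the same ring, was at 163 and 157 CPM in CV and 162 and 161 in GV. Cdt1, which loads the helicase with Cdc6, stood at 37.6 and 33.9 CPM in CV and between 24.3 and 27.8 in the other 6 libraries. CV stood well above the rest, and the change between GV and CV was -0.38 ± 0.08 (adjusted p = 0.00545). Cdc6 (-0.15) and the origin-binding Orc1 (0.00) did not pass the test, with adjusted p of 0.198 and 0.9998. Mcm3 and Mcm6 were the members of these 6 also called with the GC offset, while Mcm2 (-0.13, adjusted p = 0.148), Mcm5 (-0.17, adjusted p = 0.0571), Mcm7 (-0.15, adjusted p = 0.0801) and Cdt1 were not.

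Among the 6 genes of helicase activation, Gins1, Gins2 and Mcm10 were lower. Gins2, a subunit of GINS, had 46.9 and 48.9 CPM in CV, 45.4 and 46.6 in CH, 39.7 and 41.2 in GH, and 33.0 and 38.2 in GV. The G libraries were all below the C libraries, and the change between GV and CV was -0.43 ± 0.08 (adjusted p = 0.00263). Mcm10, which helps start unwinding, passed narrowly (-0.24, adjusted p = 0.0488), and Cdc45 did not (-0.18, adjusted p = 0.0993). Gins1 and Gins2 were also called with the GC offset, and Mcm10 was not (adjusted p = 0.087).

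Replicative polymerases, the clamp and its loader had 4 of 12 genes lower, and they were polymerase subunits together with 1 loader subunit. Pold1, the catalytic subunit of the lagging-strand polymerase, stood at 126 and 123 CPM in CV, 108 and 98.7 in CH, 96.5 and 100 in GH, and 85.8 and 94.0 in GV. CV was highest and GV lowest, and Pold1 had the smallest p of the set (log2 fold change -0.47 ± 0.07, adjusted p = 0.000639). Pole, the leading-strand polymerase, had 122 and 118 CPM in CV and 98.0 to 104 elsewhere (-0.27 ± 0.06, adjusted p = 0.00571). Pola2 and Rfc5 were the others, at -0.34 and -0.26. Of these 4, Pole and Pola2 were also called with the GC offset. Pola1 (0.11), the catalytic subunit of the primase-polymerase, and Prim1 (-0.02), the primase, did not pass (adjusted p of 0.385 and 0.895). Pcna, the sliding clamp, stood at 434 and 449 CPM in CH, 425 and 411 in CV, 401 and 393 in GH, and 333 and 399 in GV. It was lower in every G library than in every C library, but the GV libraries lay far apart, and the change of -0.19 missed the threshold (adjusted p = 0.0804). A near-identical pseudogene, Pcna-ps2, held 17.5 to 22.5 CPM, so reads of Pcna may be split between them and its level is uncertain.

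Of the 6 genes of Okazaki fragment processing, single-strand binding and the checkpoint, Lig1 alone was called. Lig1, the ligase that joins Okazaki fragments, stood at 101 and 102 CPM in CV and between 76.8 and 83.7 in the other 6 libraries. The other 3 codes overlapped, and the change was -0.35 ± 0.06 (adjusted p = 0.0021). Fen1, the flap nuclease that acts just before the ligase, changed by -0.13 (adjusted p = 0.131), and Clspn, a checkpoint adaptor, by -0.08 (adjusted p = 0.43). Lig1 was not called with the GC offset.

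In deoxynucleotide supply, 2 of 4 genes were lower, both of them for thymidylate. Tyms, which makes thymidylate, stood at 73.9 and 71.1 CPM in CV, 69.9 and 73.5 in CH, 64.5 and 63.3 in GH, and 52.0 and 56.2 in GV. The C codes overlapped, GH was lower and GV lowest, and the change between GV and CV was -0.42 ± 0.07 (adjusted p = 0.00108). Tk1, the thymidine salvage kinase, had 92.9 and 107 CPM in CV, 91.2 and 90.2 in CH, 87.0 and 88.3 in GH, and 75.0 and 73.5 in GV. The GV libraries stood well below the rest (-0.43 ± 0.07, adjusted p = 0.00125). Neither subunit of ribonucleotide reductase passed, with Rrm2 at 249 and 260 CPM in CV and 253 and 250 in GV (-0.02 ± 0.06, adjusted p = 0.863). The change of Rrm1 was 0.02 (adjusted p = 0.867). Both Tyms and Tk1 were also called with the GC offset.

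Chromatin factors had 3 of 4 genes lower. Uhrf1, which guides maintenance DNA methylation to the fork, stood at 218 and 216 CPM in CV, 179 and 183 in CH, 171 and 179 in GH, and 179 and 167 in GV. Again only CV stood apart (-0.33 ± 0.06, adjusted p = 0.00202). Chaf1a and Chaf1b, subunits of the chromatin assembly factor that places histones behind the fork, changed by -0.45 and -0.28. Both were also called with the GC offset, and Uhrf1 was not. Slbp, which binds the stem-loop of replication-dependent histone messages, was at 76.0 and 75.8 CPM in CV and 78.4 and 86.7 in GV (0.12 ± 0.07, adjusted p = 0.23).

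In the cyclin E and E2F group 5 of 6 genes were lower. E2f1, an activator of the G1-to-S transition, stood at 13.2 and 14.8 CPM in CV, 10.9 and 10.6 in CH, 10.6 and 10.3 in GH, and 9.82 and 10.1 in GV. CV was well above the rest and GV lowest, and the change of -0.49 ± 0.11 was the furthest below zero of the 48 (adjusted p = 0.0062). E2f7 and E2f8, repressors that act later in S phase, changed by -0.37 and -0.30, and the activator E2f2 by -0.42. Of the 5, E2f7 alone was called with the GC offset; E2f2 then stood at -0.17 (adjusted p = 0.243), E2f8 at -0.24 (adjusted p = 0.112) and Ccne1 at -0.09 (adjusted p = 0.494). The cyclin E genes moved apart. Ccne1 had 29.9 and 31.1 CPM in CV, 26.8 and 26.7 in CH, 30.0 and 31.4 in GH, and 25.8 and 26.3 in GV, so CV and GH were high and CH and GV were low (-0.23 ± 0.08 between GV and CV, adjusted p = 0.0431). Ccne2 had 42.0 and 37.1 CPM in CV, 46.6 and 44.4 in CH, 45.7 and 46.03 in GH, and 43.0 and 49.7 in GV. CV was lowest here, and the change of 0.23 ± 0.09 was the highest of the 48 but missed the threshold (adjusted p = 0.0728). DESeq2 called 1 gene of the set higher in this comparison, as did the fit with no filter on low counts. Fewer of the 48, and also fewer of all genes tested, were called lower without CV1, CV2 or GV1. With each library left out in turn, the median of the 48 ran from -0.253 to -0.186.

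**Figure D2:**
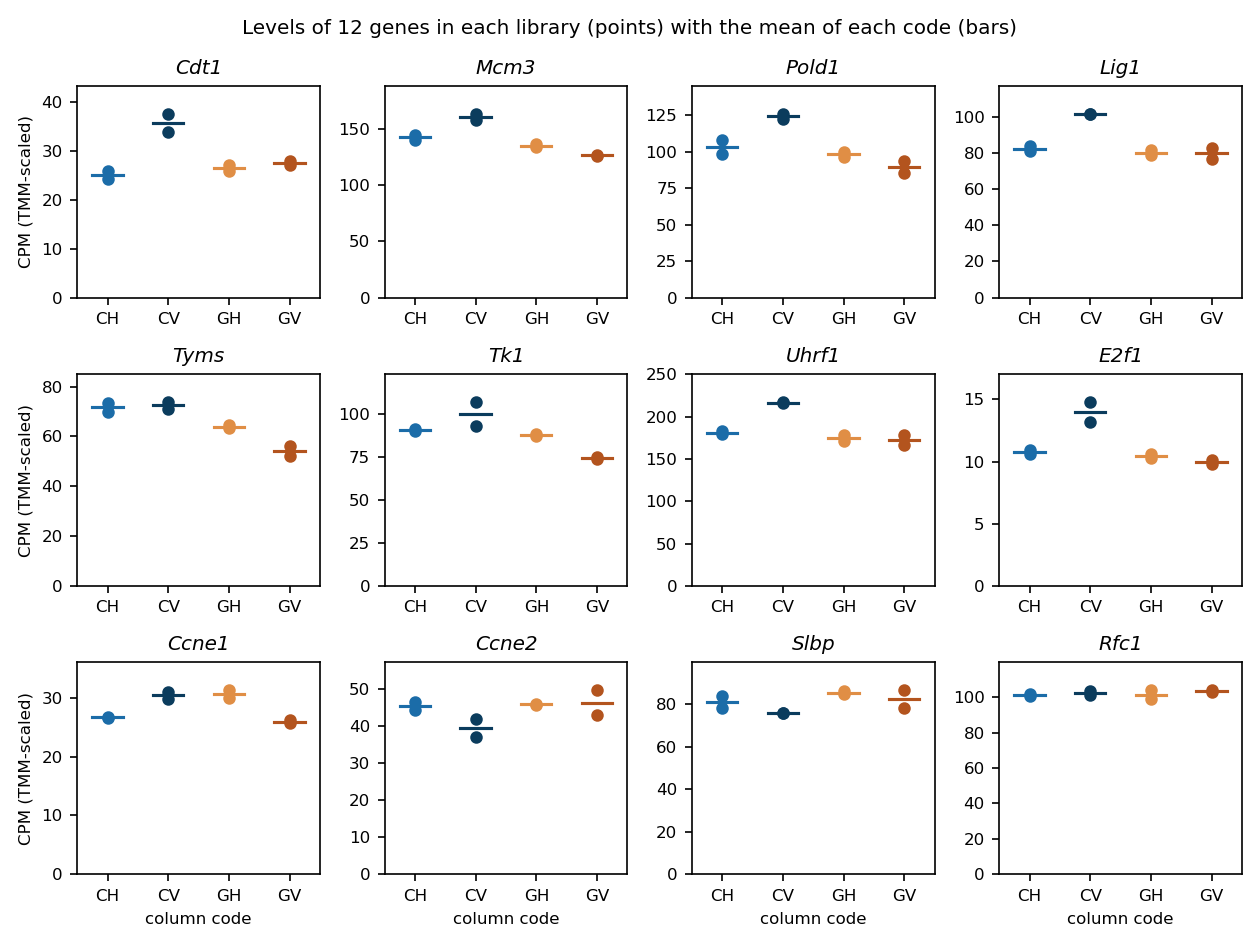
Level in CPM (vertical axes, from 0, different for each gene) of 12 genes in the 8 libraries, with points for libraries and bars for the mean of each code (n = 2). Cdt1, Lig1, Uhrf1 and E2f1 are high in CV alone, Tyms and Tk1 are low in GV, Ccne1 is high in CV and GH, and Rfc1 is level.

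Base composition moved with this comparison. Across 10282 genes with a GC value and a sufficient level, which are not independent replicates, the log2 fold change between GV and CV had r = -0.61 with the GC share of the transcript. Across the 48 genes the same r was -0.74. Of the 24 members with the higher GC share 19 were lower, and of the 24 with the lower share 5 were. Ccne2 had the lowest GC share of the set (36.3%) and Pold1 the highest (61%). With an offset for GC share fitted in each library, chosen after seeing the data, 14 members were lower against a background of 5.53%, and the median became -0.17 with 47 of 48 below zero. Of the 24 genes called without the offset, 11 were also called with it. Tyms (-0.48, adjusted p = 0.000742), Tk1 (-0.31, adjusted p = 0.0117), Mcm3 (-0.21, adjusted p = 0.0292) and Gins2 (-0.27, adjusted p = 0.0457) were among these 11. Pold1 (-0.16, adjusted p = 0.0928), E2f1 (-0.22, adjusted p = 0.224), Cdt1 (-0.12, adjusted p = 0.402), Lig1 (-0.18, adjusted p = 0.0758) and Uhrf1 (-0.16, adjusted p = 0.0978) were not called with the offset. With an offset for GC share and transcript length together, 19 members were lower, against 1069 of all 17644 genes tested. Pold1 was among the 19 (-0.17, adjusted p = 0.0463). With the offset for GC share alone, Pcna (-0.29, adjusted p = 0.0205), Orc6 (-0.27) and Dscc1 (-0.58) were called, though not without an offset. Orc6 and Dscc1 are named after their values were seen. In the fit with GC share alone, Ccne2 changed sign, to -0.19 (adjusted p = 0.201).

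**Figure D3:**
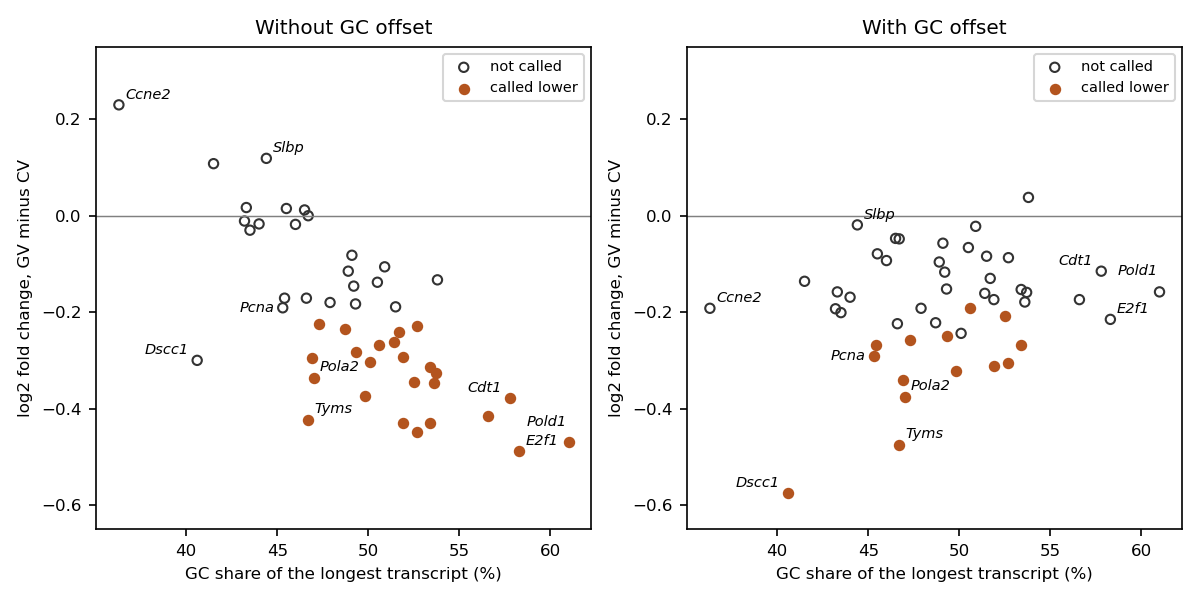
Log2 fold change between GV and CV (vertical axis) of the 48 genes against the GC share of their longest transcript in % (horizontal axis), without (left) and with (right) an offset for GC share in each library; filled points are genes lower at an adjusted p under 0.05. On the left the points fall from Ccne2 to Pold1, and on the right 47 of 48 lie below zero with no such slope.

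Under the letter H the genotype codes differed little. None of the 48 genes was called between GH and CH by edgeR's quasi-likelihood test, against 1.81% of all genes tested in either direction, and DESeq2 also called 0. At an unadjusted p under 0.05 there were 4, against 13.6% of all genes tested, namely Ccne1 (0.20) and Rfc3 (0.17) above zero and Tyms (-0.17) and Gins2 (-0.18) below. Their adjusted p ran from 0.254 to 0.336. The median over the 48 was 0.00, with 24 genes on each side of zero. For Tyms, the libraries did not overlap (69.9 and 73.5 CPM in CH, 64.5 and 63.3 in GH), but the difference did not pass over all genes.

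Averaged over both letters, 17 of the 48 genes were lower in the G codes than in the C codes and 0 were higher, against 10.2% of all genes tested that were lower. The median was -0.12. Not all of the 17 moved under both letters. Between GH and CH, Mcm5 (-0.004), Pole (-0.018) and E2f1 (-0.042) were close to level, while Pcna stood at -0.154 and Gins2 at -0.183. Gins2 was furthest below zero (-0.31 ± 0.06, adjusted p = 0.00352), followed by Tyms (-0.29 ± 0.05, adjusted p = 0.00177) and Pold1 (-0.27 ± 0.05, adjusted p = 0.00278). Ccne2 was furthest above (0.12, adjusted p = 0.197). Pcna passed here (-0.17 ± 0.05, adjusted p = 0.0377). With the GC offset 9 were lower against 5.4% of all genes, and 8 of these were among the 17. With the GC and length offset 13 were lower, against 1177 of all 17644 genes tested. In a fit on the genotype code alone, with 4 libraries against 4 and no term for the letter, edgeR's quasi-likelihood test called 0 of the 48 and 466 of all genes. In the fit with the letter, fewer of the 48, and also fewer of all genes tested, were called lower without CH1, CV1, CV2, GH1 or GH2. With each library left out in turn, the median of the 48 ran from -0.132 to -0.095.

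The letters were compared within each genotype code next. In the C libraries, 10 of the 48 genes were lower in CH than in CV and 0 were higher, against 4.99% of all genes tested that were lower. This comparison and that of GV with CV share the CV libraries, so their values are not independent. Cdt1 was furthest below zero, at 25.8 and 24.3 CPM in CH against 37.6 and 33.9 in CV (log2 fold change -0.51 ± 0.08, adjusted p = 0.00366). E2f8 had 18.7 and 17.8 CPM in CH against 24.0 and 24.8 in CV (-0.42 ± 0.10, adjusted p = 0.0177). Lig1 (-0.30), Uhrf1 (-0.26), Pold1 (-0.27), Pole (-0.23), E2f1 (-0.38), E2f2 (-0.37), E2f7 (-0.32) and Chaf1a (-0.30) made up the rest of the 10. The thymidylate genes did not pass, with Tyms at -0.02 (adjusted p = 0.91) and Tk1, lower in both CH libraries than in both CV libraries, at -0.14 (adjusted p = 0.234). The highest value was again that of Ccne2 (0.20, adjusted p = 0.165).

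The median of the 48 between CH and CV was -0.11, with 39 genes below zero. Fold change and GC share had r = -0.68 across the 48 and -0.45 across 10282 genes. With the GC offset, 4 members were lower against 2.54% of all genes, and 3 of these (Cdt1, E2f8 and Pole) were among the 10. Fewer of the 48, and also fewer of all genes tested, were called lower without CH1, CH2, CV1, CV2, GH1 or GH2. With each library left out in turn, the median of the 48 ran from -0.114 to -0.091. S1pr1 itself was higher in CH than in CV (0.41 ± 0.12, adjusted p = 0.0433), a call that missed the threshold with the GC offset (0.40, adjusted p = 0.064).

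In the G libraries, 0 of the 48 genes were called between GH and GV by edgeR's quasi-likelihood test, against 1.28% of all genes tested in either direction. DESeq2 called 0 as well, with no adjusted p for 3 of the 48. An unadjusted p under 0.05 was reached by 8 genes, all higher in GH, against 14.8% of all genes tested in either direction. They were led by Tyms (0.24 ± 0.07, adjusted p = 0.105), Tk1 (0.24 ± 0.07, adjusted p = 0.122) and Ccne1 (0.24 ± 0.08, adjusted p = 0.149). Of the 48, 40 were above zero, with a median of 0.08. Across 10282 genes the log2 fold change between GH and GV had r = -0.57 with log2 transcript length and 0.37 with GC share, and across the 48 r was -0.28 and 0.17. Averaged over both genotype codes, Cdt1 was the single member lower in H than in V (-0.28 ± 0.06, adjusted p = 0.0254), against 1.75% of all genes tested that were lower. DESeq2 called 3 members here, and this call was lost without any one of CH2, CV1, CV2, GH1, GH2 or GV1, while 3 members were called without GV2.

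**Figure D4:**
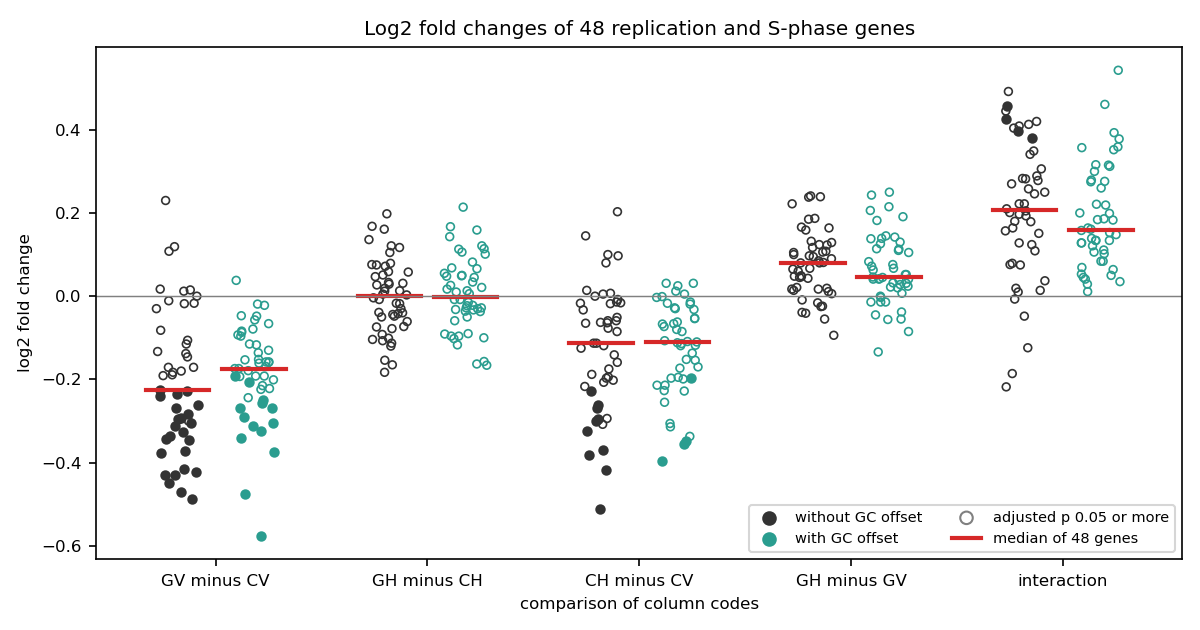
Log2 fold changes (vertical axis) of the 48 genes in 4 comparisons of codes and in their interaction, without (dark) and with (green) the GC offset; filled points have an adjusted p under 0.05 and red bars are medians. The cloud between GV and CV lies lowest, with a median of -0.23, and that between GH and CH is centred at 0.00.

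Whether the difference between letters differed between genotype codes was tested as an interaction, taken as GH minus GV less CH minus CV. Of the 48, 4 were above zero at an adjusted p under 0.05 and 0 below, against 3.93% of all genes tested that were above. They were Cdt1 (0.46 ± 0.12, adjusted p = 0.0366), Ccne1 (0.43 ± 0.11, adjusted p = 0.0347), Pold1 (0.40 ± 0.10, adjusted p = 0.0315) and Tk1 (0.38 ± 0.10, adjusted p = 0.0398). E2f2 had the highest value (0.49 ± 0.14) and missed the threshold (adjusted p = 0.0509). The median was 0.21, and 43 genes were above zero. The 4 reached this in different ways: Cdt1 was high in CV alone, Tk1 was low in GV alone, and Ccne1 was high in CV and GH. With the GC offset all 48 were above zero, with a median of 0.16, and 0 were called, against 0.884% of all genes tested. DESeq2 called 10 without the offset, against 2009 of all 17644 genes in either direction. The calls were lost without CH2, CV2, GH1 or GH2, and were fewer without CV1, GV1 or GV2. Fewer of all genes tested were called above zero in these fits too, except without GV2. With each library left out in turn, the median of the 48 ran from 0.154 to 0.237.

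Genes of the same processes outside the set, taken as 5 lists, gave a mixed picture between GV and CV, where 13.4% of all genes tested were lower and 11.6% higher (5.53% lower with the GC offset). Of 39 other origin and fork factors, 8 were lower and 5 higher, with a median of -0.03. Pold2, a further subunit of Pold1's polymerase, changed by -0.44 (adjusted p = 0.00119) and the maintenance methyltransferase Dnmt1, which works with Uhrf1, by -0.32 (adjusted p = 0.00374). The origin-binding Orc4 (0.59) and the replication-timing factor Rif1 (0.39) were higher. None of these 4 was called with the GC offset (adjusted p from 0.0865 to 0.605). Over all 39, however, 7 were lower with that offset and 0 higher. Of these 39, 31 were then below zero, with a median of -0.139. Of 20 other nucleotide supply genes, 8 were lower and 1 higher, led by Dctpp1 (-0.85), Shmt2 (-0.53), Nme1 (-0.47) and Dut (-0.42), which keeps uracil out of DNA. All 4 were also called with the GC offset, at -0.58, -0.28, -0.42 and -0.36.

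Of 29 other genes of G1-to-S control, 5 were lower and 3 higher, shares not far from those of all genes. Myc changed by -0.57 and Cks1b, a partner of cyclin-dependent kinases, by -0.47. Both were also called with the GC offset, at -0.415 and -0.445. Rb1, which restrains E2F factors, was higher (0.48, adjusted p = 0.00153), though not called with the GC offset (0.23, adjusted p = 0.0626). With that offset, 3 of the 29 were lower and 1 higher, with a median of 0.015 against -0.085 without it. The checkpoint and fork repair list had 3 lower and 3 higher of 25, shares near those of all genes, with a median of 0.02. With the GC offset, 1 of these 25 was lower and 0 were higher, 18 were below zero and the median was -0.077. Of 20 G2/M genes, 10 were lower and 0 higher, with a median of -0.14. They were led by Foxm1 (-0.47), Plk1 (-0.57), Ube2c (-0.55) and Cdc20 (-0.45), which drive entry into and exit from mitosis. With the GC offset, 9 of the 20 were lower against 5.53% of all genes, all 20 were below zero and the median was -0.16.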

How the data were processed

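Total RNA of the 8 samples was made into ribosome-depleted, strand-marking libraries, per the labels' protocols. HISAT2 2.1.0, StringTie 2.1.3b, Trimmomatic and bcl2fastq 2.20.0 stand in the submitters' processing notes, as do the builds GRCm38 and mm10. The counting step, its strand setting and its filters are not given in those notes. The authors deposited 1 table of whole-number read counts per gene and library, which were used as deposited; 16 further columns of per-library values were not used. Its columns carry library codes and no sample titles, so they were grouped by code.

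Counts were scaled by TMM and tested with edgeR 4.0.16 (limma 3.58.1, R 4.3.3) by its quasi-likelihood test, with 1 term per code over all 8 libraries, its default low-count filter and Benjamini-Hochberg adjustment over 17644 genes. Depth was 39619305 to 45698186 counts, and CPM are TMM-scaled. A gene was called at an adjusted p under 0.05. The script was tested on simulated data. Alternatives were DESeq2 1.42.0, its size factors, no filter, a replicate block, single codes and leaving out each library. After seeing the data, an offset by lowess (span 0.3) on the GC share, or GC share and length, of the longest GENCODE vM21 transcript was added. The 48 genes, other lists, roles and alternatives were chosen with earlier results of these data known. Values are given for a fixed set of role representatives, for up to 12 further called members per comparison, for the extremes, and for up to 4 genes with the smallest p of each other list.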

Additional observations from a re-analysis of the deposited data

Results flagged for a closer look

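The difference between the letters H and V differed between the genotype codes for 4 of the 48 genes, by the interaction term of edgeR's quasi-likelihood test. All 4 were above zero, against 3.93% of all genes tested that were called above zero. Cdt1, the licensing factor, had an interaction of 0.457 on the log2 scale (adjusted p = 0.0366), with a log2 fold change of -0.51 between CH and CV and -0.055 between GH and GV. Ccne1, a cyclin E gene, had 0.426 (adjusted p = 0.0347), with -0.19 between CH and CV and 0.24 between GH and GV. Pold1, a polymerase subunit, had 0.397 (adjusted p = 0.0315), with -0.27 and 0.13. Tk1, the thymidine kinase, had 0.38 (adjusted p = 0.0398), with -0.14 and 0.24. With the offset for GC share their adjusted p were 0.362, 0.151, 0.498 and 0.162, and 0 of the 4 were called.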

How the results depend on the processing

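No value changed sign among the called genes under the alternatives run, but many calls depended on the fit. With the genotype code alone, the count of 17 in the mean genotype comparison became 0, and with the letter alone the count of 1 in the mean letter comparison became 0. With the GC offset, called members were 9 in the mean genotype comparison, 14 between GV and CV (median -0.174), 4 between CH and CV and 0 in the interaction (median 0.159), and the median between GH and GV was 0.046. With the GC and length offset, called members were 19 between GV and CV, 13 in the mean genotype comparison and 5 between CH and CV. Genes called lower there were 1069, 1177 and 593 of all 17644 tested. Called members were 2 each in the mean letter comparison and the interaction (median 0.174), against 392 lower and 220 higher of all genes tested. Medians were -0.089 in the mean genotype comparison, -0.182 between GV and CV and 0.051 between GH and GV. With no filter on low counts, medians were -0.197 between GV and CV and 0.173 in the interaction. DESeq2 called 3 in the mean letter comparison and 10 in the interaction, against 1132 and 2009 of all 17644 genes in either direction. The cause of these shifts was not tested.

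Leaving out each library in turn gave 7 to 16 called members in the mean genotype comparison (median -0.132 to -0.095), 0 to 3 in the mean letter comparison (median -0.037 to 0.007), 0 between GH and CH (median -0.018 to 0.008), 14 to 23 between GV and CV (median -0.253 to -0.186), 1 to 12 between CH and CV (median -0.114 to -0.091), 0 to 1 between GH and GV (median 0.037 to 0.108) and 0 to 4 in the interaction (median 0.154 to 0.237). In these fits a code left with 1 library is assumed to vary like the others. The number of all genes called also varied between these fits. With the replicate number as a block, called members were 6 between CH and CV, 0 in the interaction, 22 between GV and CV and 16 in the mean genotype comparison. Of all 17644 genes tested, that fit called 672 lower between CH and CV, 2171 between GV and CV and 1630 in the mean genotype comparison. It called 480 above zero in the interaction. Same-numbered libraries shared little deviation: over 6 pairs of codes, r ran from -0.12 to 0.16, with 1 pair over 0.1. With 2 libraries per code, this cannot show whether the numbers stand for paired cultures or animals. Of the 56 called gene values, 53 kept their call with DESeq2's size factors, 49 with DESeq2, 45 with the block and 23 with the GC offset. With 2 libraries per code, small differences are at the limit of what can be detected.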
